A study of Mus musculus with 6 samples.

Results

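The genes of the mitochondrial ribosomal proteins were taken as every row whose symbol is Mrpl or Mrps followed by a number and at most 1 letter, which gave 76 of the 23337 gene rows, 47 with an Mrpl and 29 with an Mrps symbol. All 76 had enough counts to be tested. Nuclear RNA was sequenced from mouse neural precursor cells (NPCs), which were taken from the forebrain of E13.5 embryos and grown to passage 6 to 7 in EGF and FGF (20 ng/ml of each), with harvest at about 80% confluency. One group of 3 lines was labelled Fmr1 WT (lines 3, 8 and 19) and the other group of 3 was labelled Fmr1 KO (lines 3, 13 and 16). Fmr1 encodes FMRP, an RNA-binding protein, and the comparison asked how nuclear RNA differed between these genotypes. The series' design text calls the lines independent. The sources used here do not give the knockout allele, the strain or the number of embryos behind a line, so p-values measure the spread between these lines.

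The mitochondrial ribosome makes the few proteins that mitochondrial DNA encodes, all of them subunits of the respiratory chain and the ATP synthase. Its RNAs come from mitochondrial DNA, but each of its proteins is encoded in the nucleus, translated in the cytoplasm and imported. Many subunits descend from bacterial ribosomal proteins, others were added later in the evolution of mitochondria, and the nuclear genes are spread over most chromosomes, here 17 of them. The RNA measured is thus the nuclear share of messages that act elsewhere, and it held 0 rows of mitochondrially encoded genes, so the ribosomal RNAs of the particle were not measured.

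Library totals ran from 18702738 to 26789522 counts. Levels are given in CPM, counts scaled to a common library total with TMM factors. The targeted gene, Fmr1, went against 1 label. It measured 223, 270 and 274 CPM in WT lines 3, 8 and 19, and 371, 188 and 153 CPM in the libraries labelled KO lines 3, 13 and 16, with a log2 fold change of -0.10 (SE 0.29) that was not called by edgeR (adjusted p = 0.795). The library labelled KO line 3 thus lay above every WT library, and "KO" below stands for the label. Neural precursor markers summed to 3710 to 4418 CPM in WT and 3119 to 3872 CPM in KO, and 0 of 8 were called by edgeR (2 at an unadjusted p under 0.05, 1 by DESeq2 and 3 by limma-voom). Their log2 fold changes ran from -0.35 to 1.40, so the sums do not stand for each marker. Of other cell types, 3 of 6 neuronal markers rose (sum 803 to 1001 CPM in WT, 1085 to 1654 in KO), 3 of 5 astrocyte markers fell (237 to 480 against 98.7 to 141 CPM), and 2 of 4 tested oligodendrocyte lineage markers rose (6 rows, 58.3 to 64.9 against 97.8 to 105 CPM). By edgeR 1 of these 4 was lower at an unadjusted p under 0.05 (log2 fold change -0.35), and DESeq2 and limma-voom each called 1 lower. Of the 5 fibroblast markers 2 could be tested and both rose (1.17 to 2.39 against 4.06 to 4.85 CPM), and of the 4 endothelial markers 2 could be tested and 1 rose (4.43 to 5.02 against 5.67 to 8.98 CPM). Microglial markers summed to under 1 CPM in every library, with Cx3cr1 at 0 in the 3 KO libraries, and the endothelial marker Cldn5 was at 0 in the 3 WT libraries. The part of these markers in the results below was not tested, and in bulk RNA fewer cells of a type and less RNA per cell cannot be told apart.

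The mitochondrial ribosomal protein genes differed little between the genotypes. Of 76 genes, 1 rose in the KO libraries, Mrps2, and 5 fell, Mrps6, Mrpl33, Mrpl34, Mrpl36 and Mrps36, while 70 missed the threshold of edgeR's quasi-likelihood test, an adjusted p of 0.05. The called share was 7.89% of these genes, against a background of 42.3% of all 13925 genes tested (21.8% higher and 20.4% lower). WT and KO values did not overlap for 15 genes (7 with KO above, 8 with KO below), or 19.7% of them, against a background of 54.3%. An unadjusted p under 0.05 was reached by 15 of the 76 genes. Over all genes tested that share was at least 42.3%, since an adjusted p is never below the unadjusted one. The median log2 fold change was -0.01 over these genes and 0.01 over all genes tested. The median size of the change, irrespective of sign, was 0.16 on the log2 scale, against 0.37 for all genes tested.

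Precision was similar to that of other genes. The median standard error (SE) of the log2 fold change was 0.14, against 0.15 over all genes tested, and the median level was 23.0 CPM against 29.4 CPM. Of the 76 genes, 73 changed by less than 1.5-fold (96.1%), as did 68.5% of all genes tested. The 95% interval of the log2 fold change lay within -1 and 1 for 72 genes (94.7%, against 68% of all genes tested). It lay within 1.5-fold in either direction for 47 genes (61.8%, against 34.3%). The genes whose intervals reached beyond a 2-fold decrease were Mrpl34, Mrps36, Mrpl36 and Mrps33. The 29 genes whose intervals passed 1.5-fold included the 6 that were called. Those of the 29 that were not called could hold a change of that size that these 6 libraries did not resolve.

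**Figure D1:**
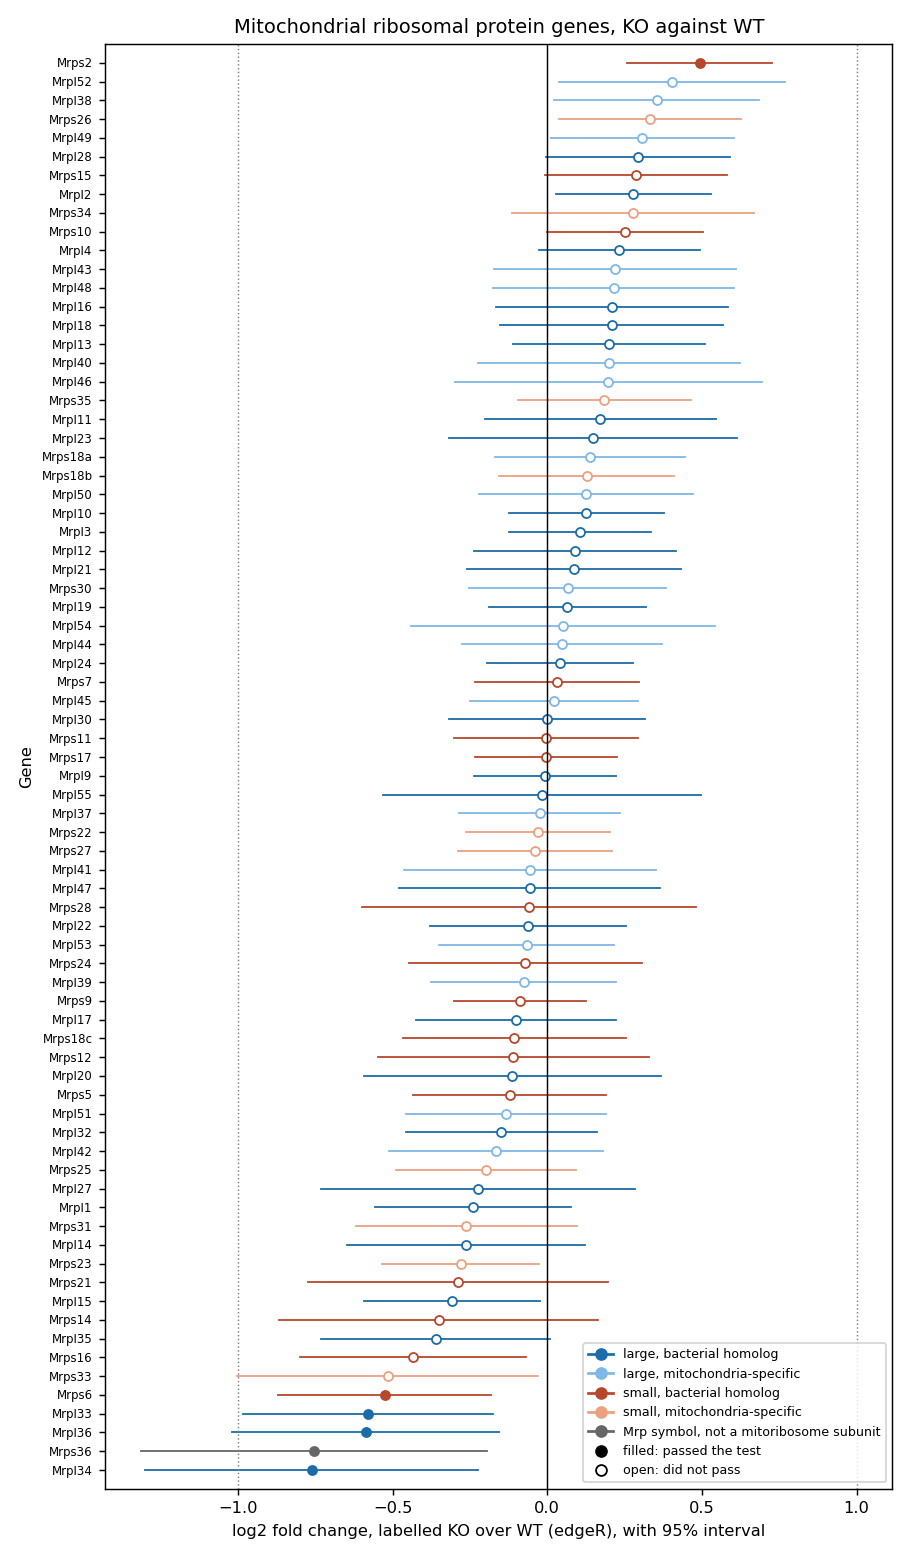
Each point is the log2 fold change of a mitochondrial ribosomal protein gene, libraries labelled KO over WT (n = 3 each, edgeR), with its 95% interval as a line, coloured by subunit and ancestry. Filled points passed the test: Mrps2 at 0.49 on the upper side, and Mrps6, Mrpl33, Mrpl36, Mrps36 and Mrpl34 from -0.53 to -0.76 on the lower side. The dotted lines mark -1 and 1.

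Set beside other groups of the same libraries, the distribution was centred near 0. Cytoplasmic ribosomal protein genes, which encode the ribosome of the cytosol, had a median log2 fold change of 0.31 (79 of 84 rows tested), with 15 called higher and 2 lower. Nuclear genes of oxidative phosphorylation, whose mitochondrially encoded partners the mitochondrial ribosome makes, had a median of -0.47 (78 of 85 rows tested), with 1 called higher and 34 lower. By the median, the mitochondrial ribosomal protein genes lay between these. The median size of the change, irrespective of sign, was 0.33 for cytoplasmic ribosomal protein genes and 0.47 for oxidative phosphorylation genes, against 0.16. In the other lists of mitochondrial genes described below it ran from 0.13 (subunits without an Mrp symbol) to 0.32 (transcription and RNA processing). A small size of change was thus not particular to the mitochondrial ribosomal protein genes. The summed level of all 76 genes was 2208, 2110 and 1884 CPM in WT lines 3, 8 and 19, and 1935, 1973 and 2314 CPM in KO lines 3, 13 and 16. The sums overlapped, at 2068 ± 166 CPM in WT and 2074 ± 209 CPM in KO (SD, n = 3 each).

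**Figure D2:**
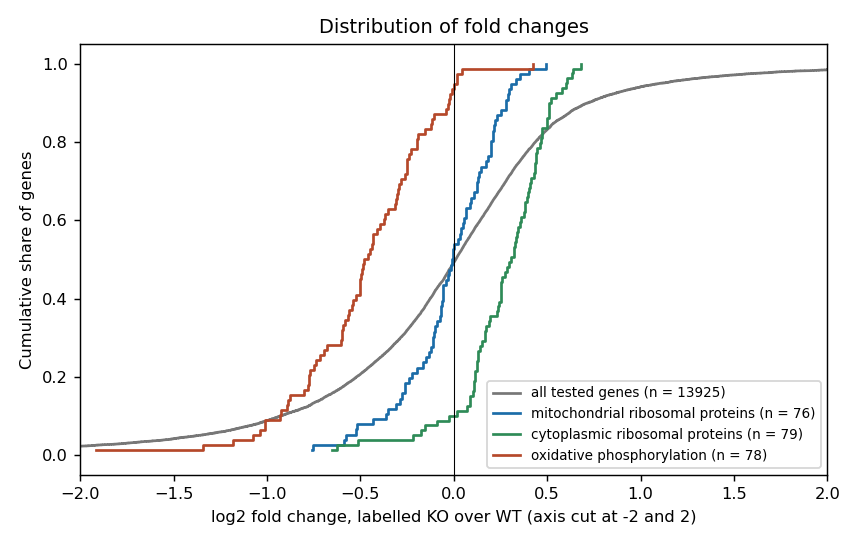
Cumulative share of genes (y axis) at or below each log2 fold change, KO over WT (x axis, from -2 to 2). The curve of the 76 mitochondrial ribosomal protein genes crosses the middle near 0 (median -0.01) and is steeper than that of all 13925 genes tested, with oxidative phosphorylation genes (median -0.47) to its left and cytoplasmic ribosomal protein genes (median 0.31) to its right.

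The only gene called higher was Mrps2, whose product belongs to the small subunit and has a bacterial homolog. Mrps2 (ENSMUSG00000035772.11, GRCm38 chromosome 2, 28468066 to 28471178, plus strand) measured 40.6, 39.7 and 35.5 CPM in WT lines 3, 8 and 19, and 54.1, 52.6 and 56.3 CPM in KO lines 3, 13 and 16. Every KO library lay above every WT library, and the spread within a genotype was small. The log2 fold change was 0.49 (SE 0.10, adjusted p = 0.00516, edgeR). Mrps2 was called in all 17 alternative analyses, at 0.43 to 0.52 when each library in turn was left out.

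The 5 genes called lower comprised 3 of the large subunit, 1 of the small subunit and Mrps36. Mrps6 (ENSMUSG00000039680.10, chromosome 16, 92058270 to 92112227, plus strand), a small-subunit protein with a bacterial homolog, measured 113, 109 and 98.0 CPM in WT lines 3, 8 and 19, and 60.7, 70.9 and 91.0 CPM in KO lines 3, 13 and 16. The groups did not overlap, although KO line 16 came close to WT line 19. The log2 fold change was -0.53 (SE 0.15, adjusted p = 0.0219). Mrps6 had the highest level per length of the 76 genes, at 59.0 CPM per kb of exon. Its annotated exons share 305 bases on the same strand with the protein-coding gene Gm49711 and 159 with Slc5a3, a myo-inositol transporter gene. Slc5a3 measured 2400 ± 210.0 CPM in WT and 707 ± 76.8 CPM in KO (SD, n = 3 each). It fell by 1.76 on the log2 scale (adjusted p = 4.3e-05, edgeR). The sources used here do not state how reads in shared exons were counted, so the level and the change of Mrps6 are uncertain.

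Mrpl33, Mrpl34 and Mrpl36 encode small proteins of the large subunit, each with a bacterial homolog. Mrpl34 (ENSMUSG00000034880.7, chromosome 8, 71464959 to 71465747, plus strand) measured 19.5, 15.9 and 14.0 CPM in WT lines 3, 8 and 19, and 8.39, 7.19 and 13.52 CPM in KO lines 3, 13 and 16. KO line 16 lay just under the lowest WT library, while the other KO libraries lay well below it. Its log2 fold change of -0.76 (SE 0.24, adjusted p = 0.0298) was the lowest of the 76 genes. Mrpl33 (ENSMUSG00000106918.3, chromosome 5, 31596935 to 31664384, plus strand) measured 25.4, 21.99 and 17.1 CPM in WT and 16.9, 12.2 and 14.2 CPM in KO, in the same order of lines. The groups were separated only by the small gap between WT line 19 and KO line 3. The log2 fold change was -0.58 (SE 0.18, adjusted p = 0.0286). Mrpl36 (ENSMUSG00000021607.9, chromosome 13, 73328513 to 73332178, plus strand) measured 15.8, 15.8 and 11.98 CPM in WT and 10.3, 7.40 and 11.4 CPM in KO. Again WT line 19 and KO line 16 were nearest to each other, and the log2 fold change was -0.59 (SE 0.19, adjusted p = 0.0347). The annotated exons of Mrpl36 overlap by 30 bases with those of Ndufs6, a complex I gene on the other strand, whose log2 fold change of -0.29 (adjusted p = 0.305) did not pass. Those of Mrpl33 share 261 bases with the predicted gene Gm43809 on the same strand.

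Mrps36 carries a small-subunit name, but its product is now known as a component of the alpha-ketoglutarate dehydrogenase complex of the citric acid cycle. Mrps36 (ENSMUSG00000061474.11, chromosome 13, 100735955 to 100744659, minus strand) measured 3.77, 3.19 and 2.39 CPM in WT lines 3, 8 and 19, and 1.496, 1.86 and 2.19 CPM in KO lines 3, 13 and 16. It was among the lowest of the 76 genes and its groups were separated by a narrow margin. The log2 fold change was -0.75 (SE 0.25, adjusted p = 0.0359). The annotation names 3 pseudogene copies of Mrps36, so its counts are uncertain.

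All 5 genes called lower lost the call when WT line 3, WT line 8 or KO line 13 was left out, each on its own, with fold changes of the same sign. In those fits 0 genes were called lower by edgeR, and 4, 5 and 5 had a lower level at an unadjusted p under 0.05. The background called lower fell too, from 20.4% to 16.2%, 16% and 15.1% of all genes tested. In either direction it was 30.4%, 31.5% and 31.2%. Without KO line 3, whose Fmr1 level goes against its label, 8 genes were called higher and 5 lower, against a background of 25.8% and 27.8%, and Mrpl34 (adjusted p = 0.0605) and Mrps36 (adjusted p = 0.0548) lost their calls in edgeR. Mrpl33 lost its call without KO line 16 (adjusted p = 0.0571). Xist, the X-inactivation RNA, was spread unevenly over the labels, at 15465, 18433 and 81.8 CPM in WT lines 3, 8 and 19 and 20508, 3.34 and 1.67 CPM in KO lines 3, 13 and 16. With Xist state (at least 1000 CPM or not) as a term, Mrpl36 (adjusted p = 0.0622) and Mrps36 (adjusted p = 0.0678) lost their calls in edgeR, and 3 genes were called lower against a background of 21.7%.

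**Figure D3:**
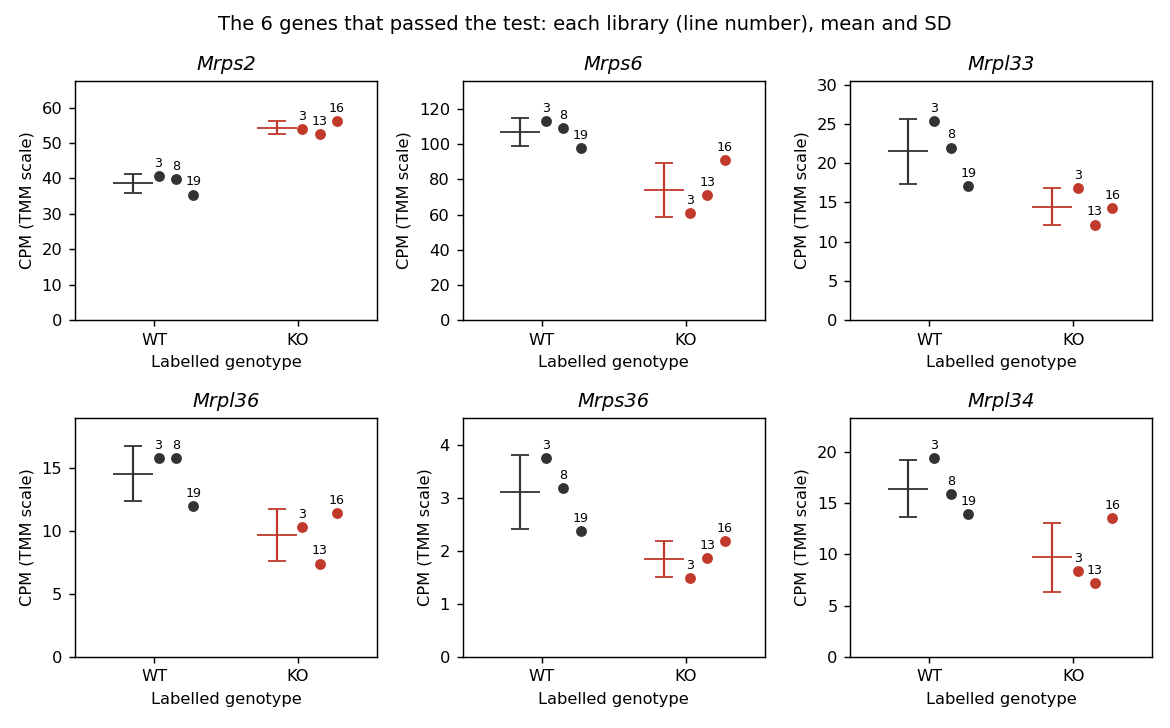
Level in CPM (y axis, from 0) of the 6 genes that passed the test, with each point a library marked by its line number, and the bar the mean and SD of the 3 libraries of a label. The KO points of Mrps2 (52.6 to 56.3 CPM) lie clear of the WT points (35.5 to 40.6 CPM), while for the 5 lower genes the highest KO point lies close under the lowest WT point.

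The proximal promoters of mitochondrial ribosomal protein genes often carry letters that match factors known to drive nuclear genes of mitochondrial proteins. RefSeq promoter windows (GRCm38.p6, 250 bases before to 50 after the start of transcription) were matched for 67 of the 76 genes, giving 73 windows. The letters CCGGAAG, the core bound by ETS factors such as the GABPA subunit of NRF2/GABP, stood on either strand in 32.9% of these windows, against 15.9% of the windows of tested genes and 8.86% of all windows. AAGATGGC, a YY1 motif, stood in 16.4% against 3.97% and 2.75%. It stood after the start in Mrps18a, Mrps27, Mrpl49, Mrps7, Mrpl35, Mrpl37, Mrpl42 and Mrps24, at positions 11 to 36. It stood before the start in Mrpl32, Mrpl36, Mrps11 and Mrps12, at positions -242 to -30. The palindromic NRF1 motif stood in 16.4% against 9.23% and 4.60%. At least 1 of these 3 motifs stood in 41 windows (56.2%), against 26.1% of the windows of tested genes and 14.7% of all windows. Other motifs were nearer the windows of tested genes: CCAAT stood in 41.1% against 37.8%, GGGCGG in 52.1% against 61.9%, the E-box CACGTG in 9.59% against 9.70% and TATAAA in 6.85% against 7.10%. The median GC content was 58.3% against 60.7%. All shares are of windows that hold the letters on either strand, GGGCGG and the NRF1 letters can overlap other motifs, and a match is a description of letters.

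The windows of the called gene that rose, of the 3 large-subunit genes that fell, and of Mrps12, which shares its promoter region with Sars2, are shown 5′ to 3′ on the gene's strand, with the ETS, NRF1 and YY1 letters (either strand) in capitals. The Mrps2 window holds none of the 3. The Mrpl33 and Mrpl34 windows each hold the ETS core, at positions -3 and -37 from the start. The Mrpl36 window holds the YY1 letters at position -30, and the Mrps12 window holds both the ETS core, at position 1, and the YY1 letters, at position -199. The Mrpl33 and Mrpl36 windows lie inside the annotated genes, downstream of the GENCODE starts at 31596935 and 73328513. The overlap and pairing of Mrpl36 with Ndufs6 rest on the GENCODE start, which the Mrpl36 window does not cover. The windows of Mrps6 and Mrps36, which also fell, hold none of the 3, like that of Mrps2.
Mrps2, chr2:28467816-28468115, plus strand: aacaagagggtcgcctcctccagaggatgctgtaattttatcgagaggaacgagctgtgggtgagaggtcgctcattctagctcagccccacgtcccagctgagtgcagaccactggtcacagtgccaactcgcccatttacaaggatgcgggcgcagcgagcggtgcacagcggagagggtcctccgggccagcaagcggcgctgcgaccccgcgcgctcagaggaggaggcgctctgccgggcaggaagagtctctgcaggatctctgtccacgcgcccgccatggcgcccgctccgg
Mrpl33, chr5:31613701-31614000, plus strand: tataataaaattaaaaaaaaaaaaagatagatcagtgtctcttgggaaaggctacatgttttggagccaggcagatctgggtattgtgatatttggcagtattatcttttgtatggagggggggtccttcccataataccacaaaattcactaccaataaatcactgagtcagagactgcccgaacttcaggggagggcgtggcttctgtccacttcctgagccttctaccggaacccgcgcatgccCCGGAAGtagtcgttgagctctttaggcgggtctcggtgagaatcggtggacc
Mrpl34, chr8:71464676-71464975, plus strand: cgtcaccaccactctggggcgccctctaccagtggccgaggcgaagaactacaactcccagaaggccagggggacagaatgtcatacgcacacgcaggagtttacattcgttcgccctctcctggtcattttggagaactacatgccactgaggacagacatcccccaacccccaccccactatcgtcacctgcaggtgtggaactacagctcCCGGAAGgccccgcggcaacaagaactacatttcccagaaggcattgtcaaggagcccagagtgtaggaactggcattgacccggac
Mrpl36, chr13:73330759-73331058, plus strand: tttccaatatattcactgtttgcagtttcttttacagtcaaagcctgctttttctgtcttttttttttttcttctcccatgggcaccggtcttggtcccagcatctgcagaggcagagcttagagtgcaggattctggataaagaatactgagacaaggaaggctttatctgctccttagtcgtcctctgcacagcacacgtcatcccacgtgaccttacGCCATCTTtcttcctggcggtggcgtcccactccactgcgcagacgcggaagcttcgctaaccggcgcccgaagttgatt
Mrps12, chr7:28741772-28742071, minus strand: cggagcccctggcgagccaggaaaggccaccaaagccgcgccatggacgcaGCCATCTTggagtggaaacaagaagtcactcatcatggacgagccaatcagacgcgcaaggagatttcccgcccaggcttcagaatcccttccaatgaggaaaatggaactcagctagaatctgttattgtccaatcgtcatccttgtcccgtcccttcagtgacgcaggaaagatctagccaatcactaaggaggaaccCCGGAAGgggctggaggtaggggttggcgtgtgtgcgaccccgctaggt

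Of the large subunit, 49 genes with an Mrpl or Mrps symbol were measured, among them Mrps30 and Mrps18a, whose products sit in the large subunit despite their names. By edgeR 0 of these 49 were called higher (4 at an unadjusted p under 0.05, 0 by DESeq2 and 2 by limma-voom) and 3 lower, with a median log2 fold change of 0.05. Of its 30 genes with a bacterial homolog, 3 were called lower and the median was -0.00. Of its 19 genes specific to mitochondria, 0 were called by edgeR and the median was 0.07. Of these, 3 reached an unadjusted p under 0.05, and limma-voom called 2 higher and DESeq2 0. The summed level of the large subunit was 1390, 1326 and 1165 CPM in WT lines 3, 8 and 19, and 1246, 1253 and 1483 CPM in KO lines 3, 13 and 16. These sums overlapped between the labels.

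Among large-subunit genes that did not pass, Mrpl2 came near, with KO values (25.8, 23.9 and 28.0 CPM for lines 3, 13 and 16) above the WT values of 21.4, 21.5 and 21.1 CPM for lines 3, 8 and 19. Its product lies at the catalytic core, and its log2 fold change was 0.28 (SE 0.11, adjusted p = 0.0711). Mrpl52 measured 18.03, 16.2 and 15.6 CPM in WT and 17.7, 21.4 and 26.7 CPM in KO, so that KO line 3 lay within the WT range. Its log2 fold change was 0.40 (SE 0.16, adjusted p = 0.0733). Mrpl38, Mrpl49, Mrpl28 and Mrpl4 had positive log2 fold changes of 0.35, 0.31, 0.29 and 0.23, with adjusted p from 0.0805 to 0.133. Mrpl15 and Mrpl35 had negative ones, of -0.31 and -0.36, with adjusted p of 0.0769 and 0.104.

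Several large-subunit proteins have a role beyond the core of the particle. Mrpl12, part of the flexible stalk and reported to bind the mitochondrial RNA polymerase, measured 46.5, 43.1 and 39.8 CPM in WT lines 3, 8 and 19, and 41.5, 40.3 and 55.7 CPM in KO lines 3, 13 and 16. The log2 fold change was 0.09 (SE 0.14) and KO line 16 held the highest value. Mrpl10 and Mrpl11, at the base of that stalk, had log2 fold changes of 0.13 (SE 0.11) and 0.17 (SE 0.17). Mrpl44, which has a ribonuclease III fold and is a cardiomyopathy gene in people, had one of 0.05 (SE 0.14), and Mrps30 one of 0.07 (SE 0.14). Adjusted p for these 5 genes ran from 0.389 to 0.815, and the sign of Mrpl12, Mrpl44 and Mrps30 depended on the analysis.

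Of the small subunit, 26 genes with an Mrps symbol were measured, 1 of them called higher (Mrps2) and 1 lower (Mrps6), with a median log2 fold change of -0.06. The medians were -0.08 for its 16 genes with a bacterial homolog and -0.03 for its 10 genes specific to mitochondria, of which 0 were called by edgeR or DESeq2, 3 reached an unadjusted p under 0.05 and 4 were called by limma-voom. The summed level was 814, 781 and 717 CPM in WT lines 3, 8 and 19, and 688, 719 and 829 CPM in KO lines 3, 13 and 16. The ratio of the large-subunit sum to the small-subunit sum was 1.71, 1.697 and 1.62 in WT and 1.81, 1.74 and 1.79 in KO. Each KO ratio lay above each WT ratio by a small step, but this separation rested on Mrps6, whose count is uncertain. Without Mrps6, an alternative chosen after seeing the data, the ratios were 1.98, 1.97 and 1.88 in WT and 1.99, 1.93 and 2.01 in KO, and overlapped.

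Mrps16 came nearest to edgeR's threshold among genes that did not pass. It was called lower by DESeq2 and limma-voom and at a threshold of 0.10. The same call came without KO line 16, without both WT line 19 and KO line 3, and without Xist, Rn45s, small RNA and histone genes. Its product is a small-subunit protein with a bacterial homolog and a cause of a respiratory chain disorder in people. It measured 16.1, 14.9 and 13.3 CPM in WT lines 3, 8 and 19, and 10.1, 9.52 and 13.2 CPM in KO lines 3, 13 and 16. KO line 16 all but met WT line 19, and the log2 fold change was -0.43 (SE 0.16, adjusted p = 0.0563). Mrps33 had the lowest fold change of the genes that did not pass, -0.52 (SE 0.21, adjusted p = 0.0816), at 4.97, 5.47 and 4.07 CPM in WT and 2.83, 3.05 and 4.25 CPM in KO. Mrps23 stood at -0.28 (adjusted p = 0.0735), Mrps26 at 0.33 (adjusted p = 0.0668), Mrps10 at 0.25 (adjusted p = 0.0983) and Mrps15 at 0.29 (adjusted p = 0.104). Mrps34, needed in the mouse for stability of the small subunit, stood at 0.28 (SE 0.17, adjusted p = 0.226). Mrps12, the homolog of the bacterial protein of the decoding centre in which streptomycin resistance arises, measured 11.96, 11.0 and 8.68 CPM in WT and 8.23, 8.88 and 12.3 CPM in KO. Its ranges overlapped almost wholly (log2 fold change -0.11, SE 0.19, adjusted p = 0.679).

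The 3 Mrps18 genes descend from a single bacterial ribosomal protein and their products sit at different places in the particle. Despite this ancestry, Mrps18a and Mrps18b were counted above among the genes specific to mitochondria, and only Mrps18c among those with a bacterial homolog. Mrps18a, in the large subunit, had a log2 fold change of 0.14 (SE 0.14), Mrps18b one of 0.13 (SE 0.12) and Mrps18c one of -0.11 (SE 0.16). None was called by edgeR (adjusted p 0.442 to 0.619), DESeq2 or limma-voom, and 0 reached an unadjusted p under 0.05. Their levels per length were 6.82, 10.9 and 10.6 CPM per kb of exon.

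Levels per length ranged from 0.600 to 59.0 CPM per kb of exon, with a median of 9.64 against 7.00 over all genes tested. After Mrps6, the highest were Mrpl28 (29.2 CPM per kb) and Mrpl12 (29.0 CPM per kb), which were nearly level. The lowest were Mrpl23 (0.600), Mrpl48 (1.35) and Mrps36 (1.95 CPM per kb). Each of these 3 has a pseudogene copy named in the annotation, as has Mrpl27. Exon length here is the union over all annotated transcripts, so a gene with long rare transcripts shows a lower value. Of the 76 genes, 32 share exon bases with another gene, 27 of them on the opposite strand and 8 on the same strand. The sources used here do not state the strand setting of the counting, and reads of such pairs may be counted on either gene or on neither.

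Within each label the genes moved together from line to line. WT line 19 was the lowest of the WT libraries for 65 of the 76 genes (85.5%, against 36.0% of all genes tested), and WT line 3 was the highest for 55. KO line 16 was the highest of the KO libraries for 64 (84.2%, against 34.7% of all genes tested). The median over genes of the deviation from each gene's mean, on the log2(CPM + 0.5) scale, was 0.09, 0.05 and -0.14 in WT lines 3, 8 and 19, and -0.09, -0.07 and 0.18 in KO lines 3, 13 and 16. Cytoplasmic ribosomal protein genes had -0.39 in WT line 19 and 0.42 in KO line 16, and lay between -0.05 and 0.00 in the other 4 libraries. Oxidative phosphorylation genes were lowest among WT in line 19 (-0.03) and highest among KO in line 16 (0.06). WT line 19 was thus the lowest WT library and KO line 16 the highest KO library by the median of each of these 3 groups, while the order of KO lines 3 and 13 differed between groups and the median of all genes tested stayed between -0.03 and 0.04.

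Other RNAs moved with these lines. The ribosomal RNA precursor Rn45s measured 18739 CPM in WT line 19 and 1078 to 2568 CPM in the other 5 libraries. Malat1, a long noncoding RNA retained in the nucleus, was highest in WT line 19 (8265 CPM) and lowest in KO line 16 (2708 CPM), against 3856 to 5773 CPM in the others. Actb, the beta-actin message that the submitters used to judge cytoplasmic carry-over, was highest in KO line 16 (1393 CPM), with 992 and 1141 CPM in the other KO libraries and 665 to 852 CPM in WT. Between the labels, Actb was called higher in KO by edgeR (log2 fold change 0.68, adjusted p = 0.00839). Malat1 was not called (log2 fold change -0.26, adjusted p = 0.574, edgeR). Neat1, another long noncoding RNA, measured 17.8 to 21.3 CPM in WT and 34.1 to 35.7 CPM in KO. The part of nuclear purity or library composition in the line pattern, or in the differences between the labels, was not tested. With both WT line 19, which stood apart in Rn45s, and KO line 3, which went against its label in Fmr1, left out, 7 genes were called higher and 11 lower, against a background of 25.9% and 28.3%.

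**Figure D4:**
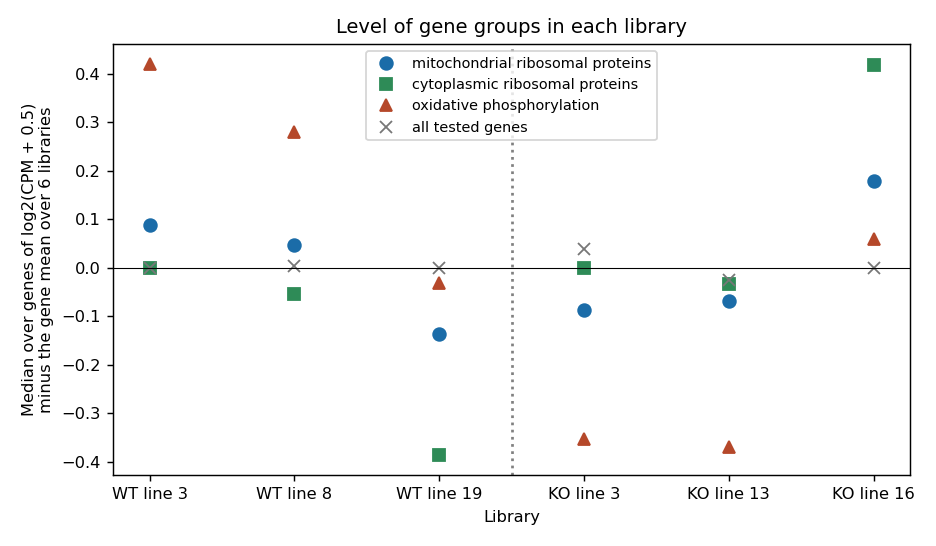
Median over the genes of a group of log2(CPM + 0.5) minus the gene's mean over the 6 libraries (y axis), for each library (x axis). The mitochondrial ribosomal protein genes (circles) are lowest in WT line 19 (-0.14) and highest in KO line 16 (0.18), and cytoplasmic ribosomal protein genes (squares) have the same lowest and highest library (-0.39 and 0.42).

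Fold change followed coding length among these genes. The coding sequences ran from 261 to 1326 bases, with a median of 582 against 1440 over all genes tested. The 5 genes called lower had coding sequences of 276 bases (Mrpl34), 306 (Mrpl36), 306 (Mrps36), 321 (Mrpl33) and 375 (Mrps6), and all stood among the 10 shortest. Spearman's rho between coding length and log2 fold change was 0.40 over the 76 genes, 0.52 over 78 oxidative phosphorylation genes, 0.23 over 79 cytoplasmic ribosomal protein genes and 0.09 over 13097 genes tested. These values are across genes, which share the 6 libraries and are not independent replicates. Of 22 genes with up to 450 coding bases, a bound set after the values were seen, 5 were called lower and the median log2 fold change was -0.19. Of the 54 longer genes, 1 was called higher, 0 were called lower by edgeR or DESeq2 (2 at an unadjusted p under 0.05 by edgeR, 4 by limma-voom), and the median was 0.08. Over all genes tested, 20.7% of those up to 450 bases and 20.6% of the longer ones were called lower. Called higher, however, were 85 of the 768 short genes and 2842 of the 12329 longer ones. The median log2 fold change was -0.11 for the short genes and 0.02 for the longer ones. The rho over the 76 genes lay between 0.33 and 0.49 in all 17 alternative analyses. Mrpl52, at 363 bases and a log2 fold change of 0.40, went against this order.

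**Figure D5:**
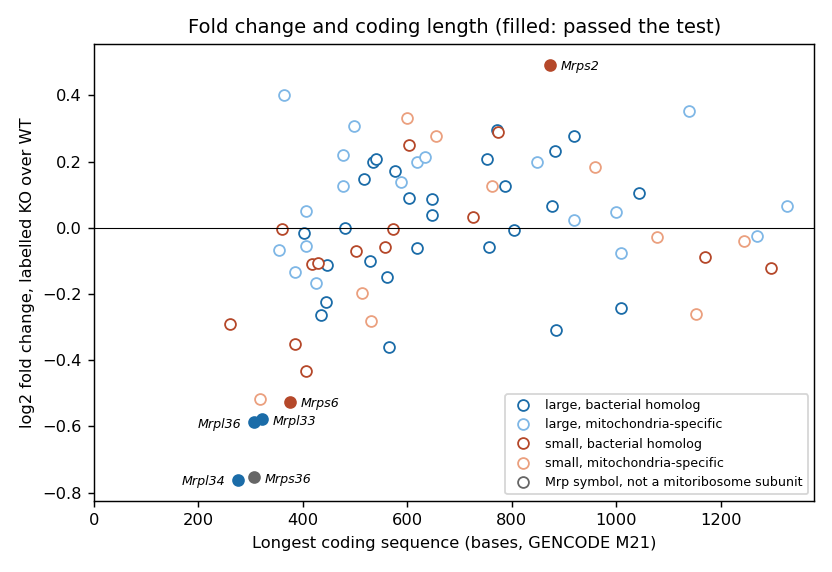
Log2 fold change, KO over WT (y axis), against the length in bases of the longest annotated coding sequence (x axis) for the 76 genes, with filled points for those that passed the test. The filled points below 0 all lie at 375 bases or fewer, and Mrps2, the filled point above 0, lies at 873 bases.

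Many mitochondrial ribosomal protein genes start back to back with another gene. A protein-coding neighbour on the opposite strand started within 1000 bases of the gene's start, or overlapped it by at most 200, in 22 cases. Of these neighbours 8 were called higher and 2 lower (45.5%, against the background of 42.3%), while the mitochondrial ribosomal protein gene was called in 1 pair, that of Mrpl36 and Ndufs6. The pairs named here were chosen after their values were seen. Ncapd2, a condensin subunit gene whose start lies 100 bases from that of Mrpl51, rose by 0.81 on the log2 scale (310 ± 6.18 CPM in WT, 544 ± 19.3 in KO, SD, n = 3 each), and Mrpl51 stood at -0.13 (SE 0.14). Hira, a histone chaperone gene 175 bases from Mrpl40, rose by 0.85, and Mrpl40 stood at 0.20 (SE 0.19). Sars2, the mitochondrial seryl-tRNA synthetase gene 172 bases from Mrps12, rose by 0.52, and Mrps12 stood at -0.11 (SE 0.19). Pnpla7, a lysophospholipase gene 935 bases from Mrpl41, fell by 1.01, and Mrpl41 stood at -0.06 (SE 0.18). The difference within each pair was not tested.

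Subunits of the mitochondrial ribosome that lack an Mrp symbol were described beside these genes. Of 7 such genes, 2 were called higher by edgeR, DESeq2 and limma-voom alike, and 0 lower. Ict1, the older symbol of Mrpl58, which encodes a peptidyl-tRNA hydrolase built into the large subunit, measured 25.7, 22.9 and 22.8 CPM in WT lines 3, 8 and 19, and 27.7, 33.4 and 38.3 CPM in KO lines 3, 13 and 16. The groups did not overlap and the log2 fold change was 0.48 (SE 0.14, adjusted p = 0.022). Gadd45gip1, another large-subunit gene, rose by 0.50 (SE 0.15, adjusted p = 0.0256), from 14.2 ± 0.733 to 20.1 ± 3.69 CPM. Both lost the call when WT line 3, WT line 8 or KO line 13 was left out (0 of 7 called by edgeR in each, 2 at an unadjusted p under 0.05). Dap3, a GTP-binding small-subunit protein, stood at -0.13 (SE 0.10, adjusted p = 0.319).

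Genes that build or serve the mitochondrial ribosome moved in both directions. Of 24 assembly factors, 3 rose and 3 fell, with a median log2 fold change of -0.06. Mterf4, listed as Mterfd2, which guides a ribosomal RNA methyltransferase to the large subunit, measured 34.3, 33.3 and 36.3 CPM in WT lines 3, 8 and 19, and 17.7, 18.3 and 17.5 CPM in KO lines 3, 13 and 16. Its groups lay far apart with little spread, and it fell by 0.96 (SE 0.10, adjusted p = 0.000189). Fastkd2, an RNA-binding protein needed for the large-subunit ribosomal RNA, fell by 0.88 (SE 0.14, adjusted p = 0.00153), from 79.5 ± 1.96 to 43.3 ± 8.62 CPM. Trub2, a pseudouridine synthase, rose by 0.56 (SE 0.10, adjusted p = 0.00189).

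Of 16 translation factors and regulators, 1 rose and 3 fell, with a median of -0.16. Guf1, a mitochondrial homolog of the bacterial elongation factor 4, measured 242, 222 and 224 CPM in WT lines 3, 8 and 19, and 148, 115 and 98.5 CPM in KO lines 3, 13 and 16. It fell by 0.93 (SE 0.15, adjusted p = 0.00134). Slirp, listed as 1810035L17Rik, which binds mitochondrial messages together with Lrpprc, fell by 0.86 (SE 0.14, adjusted p = 0.00153). Oxa1l, the insertase that receives new proteins at the inner membrane, rose by 0.39 (SE 0.10, adjusted p = 0.0122). The summed level of this list was 923 to 951 CPM in WT and 743 to 791 CPM in KO, with Guf1 and Lrpprc as its largest falling terms.

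Of 17 mitochondrial aminoacyl-tRNA synthetases, 3 rose (Sars2 by 0.52, Aars2 by 0.41 and Mars2 by 0.33) and 0 fell by edgeR or DESeq2, with 0 at an unadjusted p under 0.05 and 1 called lower by limma-voom. Lars2 measured 1987 CPM in WT line 19 and 111 to 170 CPM in the other 5 libraries, in the library that also stood apart in Rn45s, and was not called. Of 20 genes of mitochondrial transcription and RNA processing, 2 rose and 5 fell, a called share of 35% that was below the background. Tefm, the elongation factor of the mitochondrial RNA polymerase, listed as 4933417D19Rik, fell by 1.18 (SE 0.21, adjusted p = 0.00232), from 2.79 ± 0.0837 to 1.23 ± 0.148 CPM. Mterf1b, a transcription terminator homolog listed as Gm9897, fell by 0.84, and Trmt10c, a subunit of mitochondrial RNase P listed as Rg9mtd1, fell by 0.51.

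Of 10 nuclear regulators of genes for mitochondria, 4 rose and 0 fell by edgeR or DESeq2, with 0 lower at an unadjusted edgeR p under 0.05 and 1 called lower by limma-voom. Myc, a growth regulator that acts on ribosome and mitochondrial genes, measured 80.7, 68.0 and 82.3 CPM in WT lines 3, 8 and 19, and 137, 162 and 168 CPM in KO lines 3, 13 and 16. It rose by 1.01 (SE 0.12, adjusted p = 0.000335). Pprc1, a coactivator related to PGC-1 alpha, rose by 0.61 (SE 0.11), Gabpb2, a partner of the ETS factor GABPA, by 0.55 (SE 0.15) and Nrf1, named because it completes the 4, by 0.29 (SE 0.09). Of 26 genes of mitochondrial protein import, 2 rose and 2 fell. Pmpcb, a subunit of the protease that removes targeting sequences, fell by 0.68 (SE 0.13), Tomm7, a small subunit of the outer membrane translocase, fell by 0.78 (SE 0.22), and Timm50, a receptor of the inner membrane translocase, rose by 0.42 (SE 0.11). In each of these lists the called share lay below the background of 42.3%. It was 40% for the regulators, near that background, and 15.4% to 35% for the other lists.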

How the data were processed

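The authors deposited unnormalized counts for 23337 gene symbols in each of 6 samples. The submitters' processing notes name cutadapt 1.14, STAR, HTSeq 0.7.2, DESeq2 and the build mm10. The sources used here do not state the annotation, the strand setting or what each tool did. Per the labels' protocols, nuclear fractions came from an extraction kit and were used when U1 was high and beta-actin low. Total counts were 18702738 to 26789522, and 1 count was worth 0.0373 to 0.0535 CPM.

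The deposited counts entered edgeR 4.0.16 (R 4.3.3), using filterByExpr, TMM factors (trimmed mean of M values) and a robust quasi-likelihood fit of label over the 6 samples. Two-sided p-values were adjusted by Benjamini-Hochberg over all 13925 genes tested, with a threshold of 0.05. SEs were derived from the F statistic and intervals from its degrees of freedom. The procedure was tested on simulated data. Positions, exons and coding lengths came from GENCODE mouse release 21 (GRCm38), which held 22877 of the symbols, and promoter windows from RefSeq (GRCm38.p6).

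The genes, lists, tests and alternatives were chosen with earlier results of these data known. Genes named were the 20 with the smallest p, the 3 highest and 3 lowest per length, the 4 largest changes not called, genes with a known special role, up to 3 genes of each other list by smallest p, and Fmr1. Any other gene named was chosen after its values were seen. Alternatives were 3 other scalings, 2 filters, DESeq2 1.42.0, limma-voom 3.58.1 with sample weights, a threshold of 0.10, Xist state as a term, removal of Xist, Rn45s, small RNA and histone genes, and leaving out libraries.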

Additional observations from a re-analysis of the deposited data

How the results depend on the processing

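The 3 other scalings, both filters and DESeq2 gave 1 gene called higher and 5 lower, or 6 lower with DESeq2. With limma-voom 6 genes were called higher and 13 lower (background 57.4%), at a threshold of 0.10 the counts were 7 and 9 (51.2%), with Xist state as a term 2 and 3, and leaving out both WT line 19 and KO line 3 gave 7 and 11 (54.2%). Without Xist, Rn45s, small RNA and histone genes 8 were called lower. Leaving out each library gave 1 to 8 genes called higher and 0 to 7 called lower. The 0 came without WT line 3, WT line 8 or KO line 13 and the 8 without KO line 3. In each of these analyses the called share of the mitochondrial ribosomal protein genes was below that of all genes tested. The median log2 fold change stayed between -0.07 and 0.06 when libraries were left out. Mrps2 kept its call in all 17 alternatives, Mrps6 in 14, Mrpl33, Mrpl34 and Mrpl36 in 13 each and Mrps36 in 12. Of 544 values of 32 named genes, 470 kept direction and side of the threshold, 44 newly passed, 20 no longer passed and 10 changed sign. Those 10 were of genes that did not pass. Mrpl12 was at -0.0038 with limma-voom and at -0.066 (without KO line 16) to 0.18 with a library left out. Mrpl44 was at -0.0074 without Xist, Rn45s, small RNA and histone genes and at -0.044 (without KO line 16) to 0.13 with a library left out. Mrps18c ran from -0.21 to 0.018 (without WT line 3) with a library left out. Mrps30 was at -0.031 with limma-voom, at -0.13 with WT line 19 and KO line 3 left out, and at -0.055 (without WT line 19) to 0.14 with a single library left out. The cause of these changes was not tested. No paired analysis was possible because the 2 labels share only line number 3. With 3 libraries a label, changes under 1.5-fold could often not be resolved.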
